A study of Macaca mulatta with 24 samples.

Results

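The HNRNP and SRSF genes are the 30 rows of the deposited table whose gene symbol begins with HNRNP (19 genes) or with SRSF and a digit (11 genes), of 35432 genes in all. The heterogeneous nuclear ribonucleoproteins encoded by HNRNP genes coat newly made RNA and often block the use of nearby exons, while the serine and arginine rich proteins encoded by SRSF genes bind exons and recruit the splicing machinery to them. Many of these proteins also limit their own level: the transcript is spliced to include an exon with an early stop codon and is then removed by nonsense-mediated decay. In human cells stress and SR protein kinases are known to change this splicing. The table holds 1 value per gene, so spliced forms were not measured here.

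RNA was measured in tracheal and bronchial epithelial cells of 4 adult female rhesus macaques, grown on porous inserts and differentiated at an air–liquid interface in medium with retinoic acid. The groups were diluted whole wood smoke and filtered air after 1 day of exposure, after 5 days, and at the end of 7 days of recovery after a 5-day exposure, with sessions of 6 hours per day and 4 libraries in each of 6 groups. Animals S1, S2, S3 and S4 were 5463, 2930, 2238 and 1128 days old, so an age stands for a single animal, and each animal gave 1 library to every group. Air cultures passed through the same times in culture as smoke cultures. Between air groups, time in culture, days of air sessions and the recovery week differ together and cannot be told apart.

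All 30 genes passed the filter on low values (10 or more in 4 or more libraries), as did 14062 genes in all. SRSF12, an atypical family member known to counter the other SR proteins, reached 10 in exactly 4 libraries and lay at 1.05 to 17.7 normalized counts, just inside the filter, and no HNRNP or SRSF symbol fell outside it. A further 4 rows that pass have no symbol in the table. The reference gene table names them HNRNPA3, HNRNPUL2, SRSF3 and a second HNRNPA1L2. They were not called in any comparison of smoke with air, without or with animal as a block.

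Normalized library totals were 11.8 to 15.2 M, approximate depths 9.38 to 17.2 M reads, and the HNRNP and SRSF genes held 0.413 to 0.604% of the values of a library. The share of mitochondrially encoded genes was 2.95 to 8.82%. Of 10 listed markers each, 8 of basal, 8 of multiciliated and 9 of secretory cells, the main cell types of this epithelium, were found, and no found marker was at 0 throughout a group. S1's 5-day air library stood apart: its median correlation with the other libraries was 0.860, against 0.931 to 0.956 for the other 23. It held 8.49% mitochondrial values, against 2.95 to 3.67% in the other 3 air libraries of that time, and had the highest total, the lowest approximate depth and the lowest HNRNP and SRSF share of the 24 libraries. Its HNRNP and SRSF values deviated by a median of 0.326 (log2) from the mean of the other 3 air libraries, 12 of 30 by more than 0.5. The median deviation was 0.0396 to 0.207 in the other libraries, where 0 to 4 genes passed 0.5. This library enters every comparison with 5-day air and the estimate of spread in all of them, so results are also given without it.

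**Figure D1:**
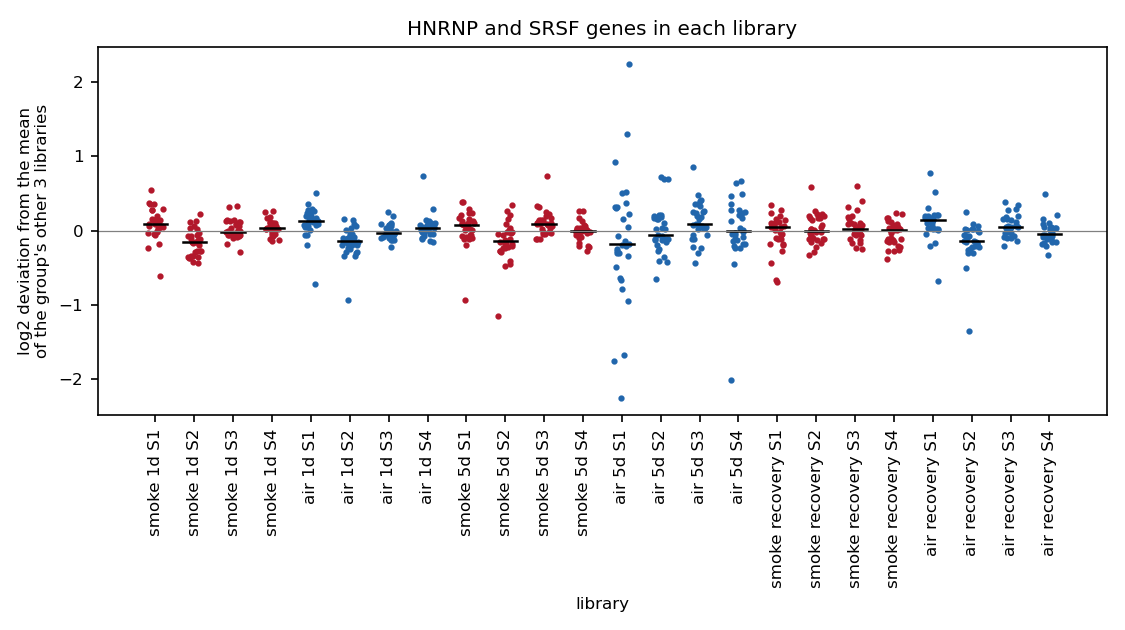
Deviation of each HNRNP and SRSF gene (points, log2 of normalized count + 1) from the mean of the other 3 libraries of its group, by library, with smoke in red, air in blue and the median as a bar. S1's 5-day air library has the widest scatter, with 12 of 30 genes past 0.5 in size, against 0 to 4 in the other libraries.

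Group means were fitted with limma on log2(normalized count + 1), and a gene was called at an adjusted p under 0.05 over all 14062 genes. A fold change on this scale slightly understates the change of low genes. The fit was made without and with the animal as a block, since the libraries of an animal deviated together. The table gives no gene lengths, so levels are compared between samples and not between genes. In these bulk cultures, fewer cells of a type and less RNA per cell cannot be told apart.

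The first comparison asked what 1 day of exposure did to these regulators. HNRNPDL was the member that rose without a block, 1.78-fold in the means, and SRSF5 joined it with animal as a block (1.44-fold). HNRNPD and SRSF6 also lay higher, and HNRNPH3 and SRSF10 lower, in every smoke library than in any air library, but none of these passed in either fit.

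HNRNPDL (ENSMMUG00000015777) encodes a close relative of the AU-rich element binding protein HNRNPD. It had 1982, 1368, 1590.5 and 1676 normalized counts in smoke cultures of S1 to S4, against 1109, 775, 909.7 and 925 in air cultures. Every smoke library lay above every air library, and the difference had nearly the same size in each animal. It rose by a log2 fold change of 0.83 ± 0.15 (SE), with an adjusted p of 0.040 without and 0.0004 with animal as a block. Without a block this call was lost with library totals as scaling (adjusted p = 0.25), with no trend in the variances (0.082) and on the 8 libraries of 1 day alone (0.25). It stayed in 9 of 24 omissions of a library, and with the block in 24 of 24.

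SRSF5 (ENSMMUG00000022407), an SR protein known in rat as a gene induced in regenerating liver, had 2456, 2326, 2596 and 2501 normalized counts in smoke, against 1768, 1566, 1773 and 1751 in air. The groups did not overlap, and the spread within each was small (SD 112 in smoke and 99.4 in air). Its log2 fold change was 0.53 ± 0.13 (adjusted p = 0.57, and 0.029 with the block). SRSF6 (ENSMMUG00000006742), another SR protein that binds exonic enhancers, had 2542, 2263, 3101 and 2673 in smoke, against 1928, 1885, 2092 and 2023 in air. Its groups did not overlap either, yet it did not pass (log2 0.41 ± 0.12, adjusted p = 0.21 with the block).

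HNRNPD (ENSMMUG00000060484), which binds AU-rich elements and directs messenger RNA decay, had 2128, 1955, 1966 and 2094 normalized counts in smoke, against 1707, 1420.3, 1461 and 1578 in air. The lowest smoke library lay above the highest air library (log2 0.40 ± 0.12, adjusted p = 0.11 with the block). HNRNPH3 (ENSMMUG00000009792), of the H and F family that binds runs of G, went the other way with 1243, 1121, 1150.5 and 1114 in smoke, against 1592, 1513, 1323 and 1514 in air. Its smoke libraries all lay below its air libraries (log2 −0.36 ± 0.09, adjusted p = 0.18 with the block). SRSF10 (ENSMMUG00000038562), known in human cells as a splicing repressor after heat shock and in mitosis, had 210.3, 245, 255 and 239 in smoke, against 330.1, 308, 294 and 295 in air. It too was lower in all 4 animals without overlap, and did not pass in either fit (log2 −0.37 ± 0.25).

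In all, 1 of 30 members was called at 1 day without a block (1 higher, 0 lower), against 0.0284% of all genes tested. With the block it was 2 (2 higher), against 0.0782%. Left without S1's 5-day air library, which enters this comparison only through the spread, the block fit called 6 members (4 higher, 2 lower), against 0.96%. HNRNPDL, SRSF5, HNRNPD and SRSF6 rose and HNRNPH3 and SRSF10 fell in that fit (adjusted p from 1.3e-06 to 0.036). Fitted with the block on the 8 libraries of 1 day alone, 15 members were called, against 9.11% of all genes. Smoke and air did not overlap for 7 members at 1 day (4 higher in smoke, 3 lower), against 4.1% of all genes tested, and 19 of 30 had a log2 fold change above 0. The median over members was 0.05, beside 0.00 over all genes.

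**Figure D2:**
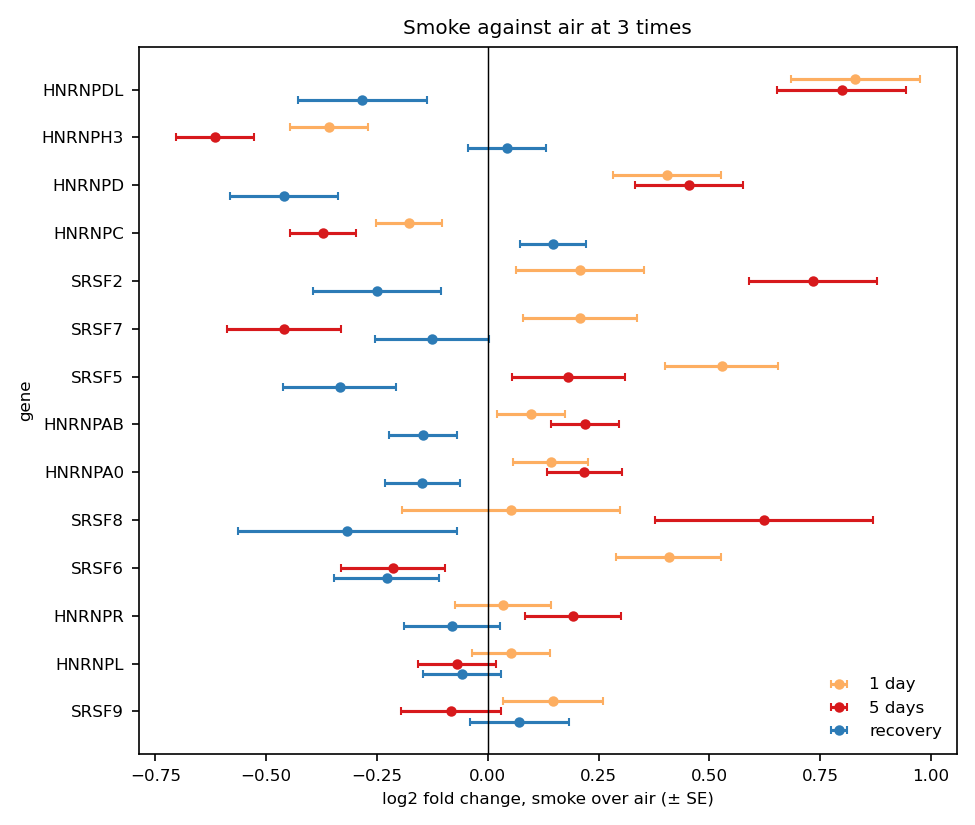
Log2 fold change of smoke over air (points, bars ± SE, no block) at 1 day, 5 days and recovery for the 14 HNRNP and SRSF genes named by rule. HNRNPDL and HNRNPD lie above 0 at both exposure times and below 0 after recovery, and HNRNPH3 lies furthest below 0 at 5 days.

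After 5 days of exposure HNRNPDL was again higher in smoke and HNRNPH3 was lower, both without a block. With animal as a block HNRNPD and SRSF2 also rose and HNRNPC and SRSF7 also fell. Without a block these 4 had adjusted p from 0.061 to 0.22.

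HNRNPDL had 1448, 1137, 1310.1 and 1121 normalized counts in smoke cultures, against 650.3, 677, 862 and 695 in air cultures. Every smoke library lay above every air library, and the smoke mean was 1.74 times the air mean. The log2 fold change was 0.80 ± 0.15 (adjusted p = 0.033, and 0.00065 with the block), and it was 0.69 without S1's 5-day air library (adjusted p = 5.4e-05, block). HNRNPD had 1858, 1429, 1672 and 1647 in smoke, against 1415, 995, 1382 and 1067 in air. The groups were separate by a narrow margin, 1429 in S2 smoke against 1415 in S1 air, and within each animal smoke was higher (log2 0.45 ± 0.12, adjusted p = 0.19, and 0.012 with the block).

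HNRNPH3 had 1204, 1387, 1259 and 1279 normalized counts in smoke, against 1728, 2134, 2040.5 and 1975 in air. The smoke libraries all lay below the air libraries, at 0.651 times the air mean. The log2 fold change was −0.62 ± 0.09 (adjusted p = 0.0022, and 0.00089 with the block). HNRNPC (ENSMMUG00000014809), which binds uridine tracts on newly made RNA and blocks cryptic exons, had 4408, 4839, 4828 and 4372 in smoke, against 6462, 6064, 5643 and 5714 in air. All smoke libraries were lower, and the difference passed with the block (log2 −0.37 ± 0.07, adjusted p = 0.0079) and not without it (0.065).

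SRSF2 (ENSMMUG00000022412), the SR protein long used as a marker of nuclear speckles, had 985, 809, 1043 and 940.4 normalized counts in smoke, against 687, 530.3, 501 and 558 in air. Smoke was higher in all 4 animals without overlap (log2 0.73 ± 0.14, adjusted p = 0.061, and 0.014 with the block). SRSF7 (ENSMMUG00000011025), an SR protein with a zinc knuckle that also takes part in RNA export, had 608, 449, 647 and 584 in smoke, against 1019, 730.3, 697 and 713 in air. Its groups did not overlap, and the S1 air library was the highest (log2 −0.46 ± 0.13, adjusted p = 0.22, and 0.029 with the block). Without that library SRSF7 still passed with the block, at log2 −0.36 (adjusted p = 0.017).

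The 5-day values of SRSF5 and SRSF6 did not repeat the separation of 1 day. SRSF5 had 1375, 1032, 1419 and 1512 normalized counts in smoke, against 1012, 1125, 1195 and 1350.1 in air, and the groups overlapped (log2 0.18 ± 0.13, adjusted p = 0.67). SRSF6 had 1258, 1155, 1398 and 1388 in smoke, against 1548, 1308, 1455 and 1734 in air, also with overlap and with smoke lower in all 4 animals (log2 −0.21 ± 0.12, adjusted p = 0.60).

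For 2 further members whose groups did not overlap, the differences were small. HNRNPAB (ENSMMUG00000003996), which binds single-stranded nucleic acid, had 2878, 2924, 3092 and 2936 normalized counts in smoke, against 2446, 2782, 2471 and 2478 in air (log2 0.22 ± 0.08, adjusted p = 0.10 with the block). HNRNPA0 (ENSMMUG00000011929), which binds AU-rich elements and is a target of a stress kinase, had 1264, 1284, 1228 and 1258 in smoke, against 988, 1207, 1132 and 1015 in air (log2 0.22 ± 0.08, adjusted p = 0.16 with the block). Both were higher in smoke in all 4 animals and neither passed.

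The S1 air library set the value of other members at 5 days. SRSF8 (ENSMMUG00000007639), in human an intronless copy of SRSF2, may share reads with it, so its values are uncertain. It had 249, 302, 277 and 228 in smoke, against 70.6, 245, 218 and 221 in air. Its lowest air value was that of S1, and the log2 fold change of 0.62 ± 0.25 (adjusted p = 0.44) became 0.21 without that library (block). SRSF10 had 347, 366, 308 and 294 in smoke, against 141, 506, 433 and 490.2 in air, so that S1 alone of the air libraries lay below the smoke libraries. Its log2 fold change was −0.10 ± 0.25 with S1 and −0.55 without it, where it fell (adjusted p = 0.0018, block). HNRNPK (ENSMMUG00000018871), which binds runs of C, had 8581, 8011, 8170.0 and 8154 in smoke, against 4032, 7366, 7953 and 7930.3 in air. Its groups did not overlap, but its log2 fold change of 0.32 ± 0.15 became 0.06 without that library (adjusted p = 0.50, block).

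In all, 2 of 30 members were called at 5 days without a block (1 higher, 1 lower), against 0.0711% of all genes tested. With the block it was 6 (3 higher, 3 lower), against 1.69%. Without S1's 5-day air library the block fit called 8 (3 higher, 5 lower), against 6.26%, with SRSF10 and SRSF4 the members added. On the 8 libraries of 5 days alone, 0 of 30 members and 0 of 14062 genes were called in either fit, which ends every 5-day call (adjusted p of HNRNPDL and HNRNPH3 0.99 without and 0.80 with the block). At an unadjusted p under 0.05 there were 10 of 30 members, beside 9.29% of all genes. Smoke and air did not overlap for 9 members (6 higher in smoke, 3 lower), against 3.46% of all genes. Markers of cycling cells lay above 0 in 10 of 10 genes at 5 days, none of them called, with summed levels of 1438 to 3363 in smoke and 1274 to 2528 in air. Their part in the splicing results was not tested.

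**Figure D3:**
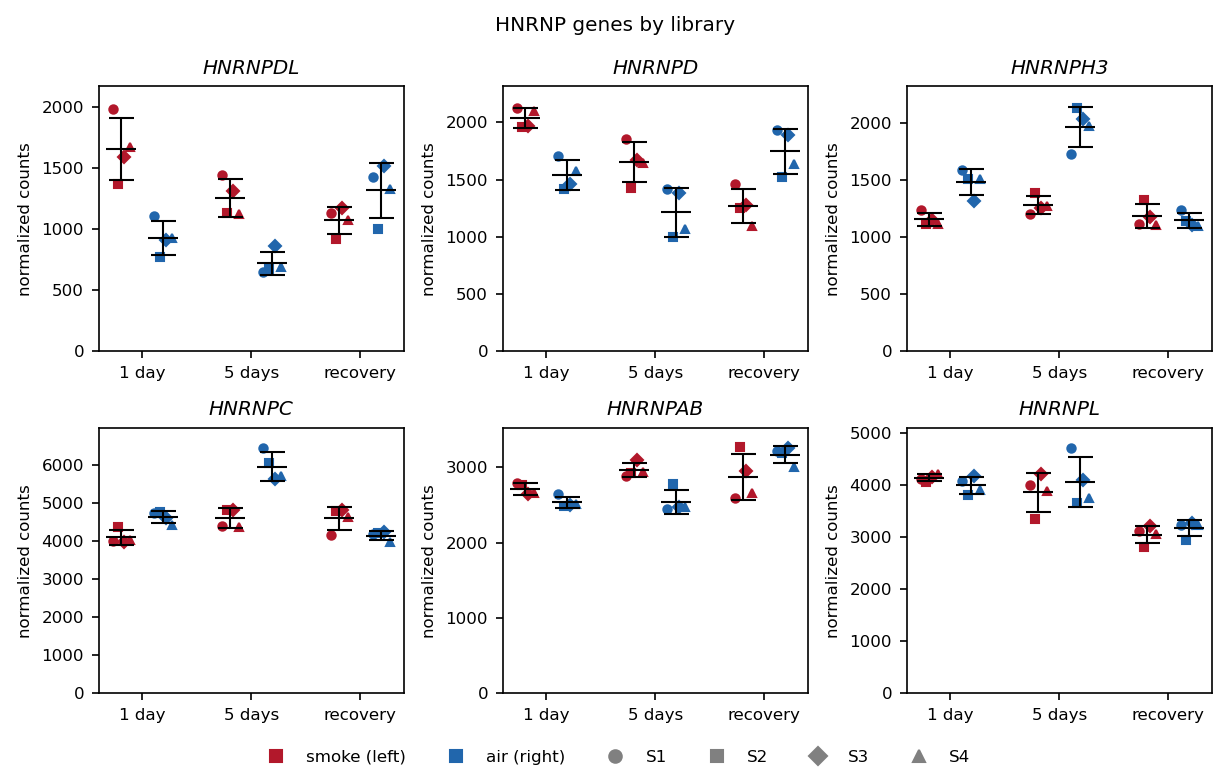
Normalized counts of 6 HNRNP genes in each library at 1 day, 5 days and recovery, with smoke left of air, a symbol per animal, and the mean ± SD as black bars (n = 4). HNRNPDL and HNRNPD lie above air at 1 and 5 days and HNRNPH3 and HNRNPC below it, most widely at 5 days.

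**Figure D4:**
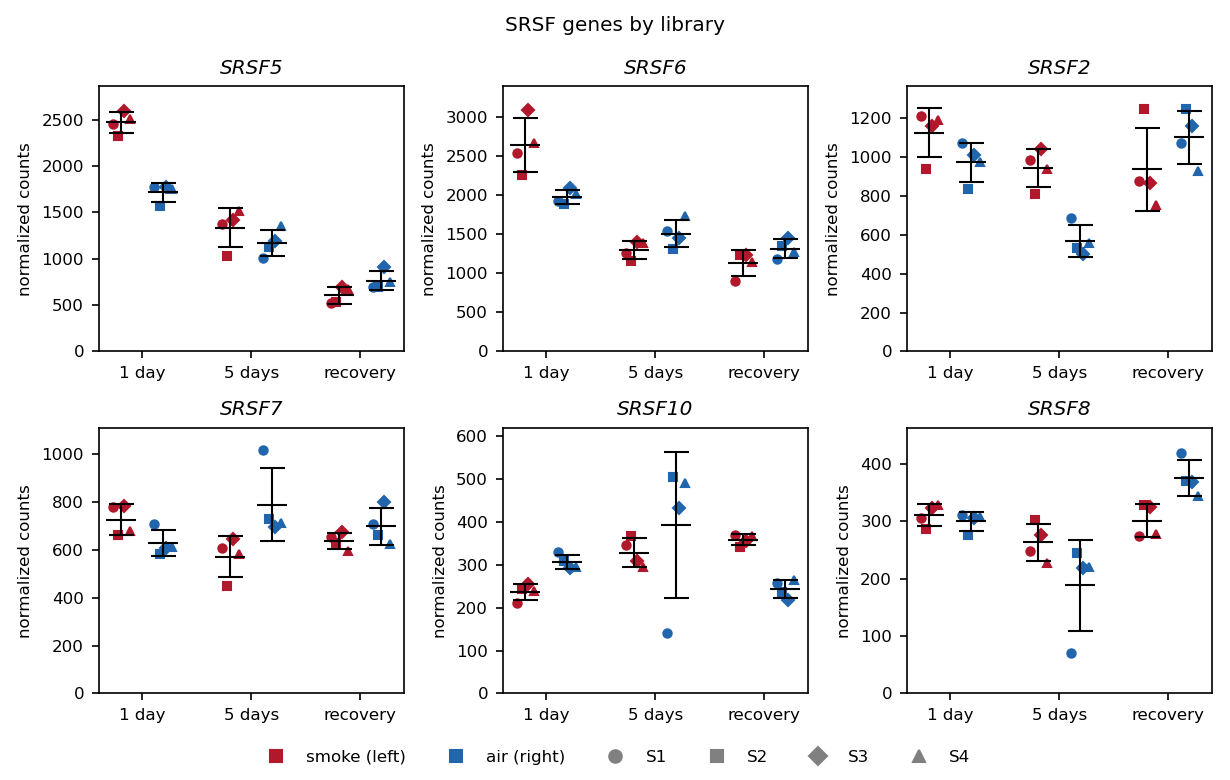
Normalized counts of 6 SRSF genes in each library, drawn in the same way as the HNRNP genes. SRSF5 lies lower at each later time in both groups, SRSF2 separates at 5 days, and S1's 5-day air library is apart for SRSF7, SRSF8 and SRSF10.

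After the recovery week no member was called without a block (0 of 30, against 0.242% of all genes). At an unadjusted p under 0.05 there were 6 members, beside 8.51% of all genes. With the block 1 member, HNRNPD, was called, and it was lower in cultures that had been exposed to smoke, against 3.41% of all genes. The direction was the opposite of that at both exposure times.

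HNRNPD had 1457, 1251, 1276 and 1093 normalized counts in smoke-exposed cultures after recovery, against 1936, 1522, 1890.3 and 1634 in air cultures. All smoke libraries lay below all air libraries, at 0.727 times the air mean (log2 −0.46 ± 0.12, adjusted p = 0.17, and 0.0063 with the block). HNRNPDL had 1129.9, 919, 1176 and 1072 in smoke, against 1424, 1000.0, 1515 and 1331 in air. It was lower in smoke in all 4 animals with overlapping groups (log2 −0.28 ± 0.15, adjusted p = 0.14 with the block). HNRNPH3, at 1114, 1332, 1182 and 1113 in smoke and 1242, 1141, 1109 and 1100.5 in air, had overlapping groups (log2 0.04 ± 0.09).

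The SRSF genes were divided after recovery. SRSF5 had 519, 533, 692 and 675 normalized counts in smoke, against 694, 696, 909 and 745 in air, without overlap (log2 −0.33 ± 0.13, adjusted p = 0.054 with the block). SRSF10 was on the other side, with 369, 341, 357 and 366 in smoke against 257, 237, 219 and 265 in air. Its groups did not overlap and smoke was higher in all 4 animals (log2 0.55 ± 0.25, adjusted p = 0.54, and 0.25 with the block). SRSF2 had 876, 1249, 869 and 756 in smoke, against 1072, 1247, 1161 and 927 in air, and S2 was nearly equal in both (log2 −0.25 ± 0.14). SRSF8 had 275, 328, 326 and 278 in smoke, against 419, 371, 368 and 344 in air, without overlap (log2 −0.32 ± 0.25).

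Without S1's 5-day air library, which belongs to no recovery group, the block fit called 10 of 30 members after recovery (4 higher, 6 lower), against 18.8% of all genes. HNRNPD, HNRNPDL, SRSF5, SRSF8, HNRNPU and HNRNPUL1 fell there, and SRSF10, HNRNPLL, HNRNPC and SRSF1 rose (adjusted p from 0.00023 to 0.040). On the 8 recovery libraries alone 0 members were called without the block, against 0.0427% of all genes, and 10 with it, again against 18.8%. Smoke and air did not overlap for 6 members (2 higher in smoke, 4 lower), against 8.04% of all genes. HNRNPLL, known for splicing of the CD45 transcript in T cells, was at log2 0.29 ± 0.12 without a block and its groups did not overlap. HNRNPUL1 and its relative HNRNPU, a scaffold protein of nuclear chromatin, were at −0.23 ± 0.09 and −0.24 ± 0.11.

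The basal cell markers moved with this comparison. Their summed level was 22220 to 42130 in smoke-exposed cultures after recovery, against 58260 to 69480 in air cultures, over 8 of 10 listed genes that were found. All 8 were below 0 in log2 fold change, and KRT5 (−1.22 ± 0.22) and ITGB4 (−1.04 ± 0.16) were called without a block. Of the 10 cycling cell markers 2 were above 0, with summed levels of 1134 to 1600 in smoke and 1513 to 1597 in air, and MKI67 was called lower with the block (−1.86 ± 0.40, adjusted p = 0.012), as HNRNPD was. The part of cell makeup in the HNRNP and SRSF values was not tested. The summed multiciliated markers were 7469 to 22240 in smoke and 6709 to 15720 in air, and the summed secretory markers 17770 to 79920 and 12590 to 64770. Summed fibroblast markers were 549 to 696 in smoke and 642 to 696 in air, and summed leukocyte markers 2968 to 5378 and 2446 to 3519. The fibroblast markers DCN and LUM and the leukocyte markers PTPRC and MS4A1 were at or near 0, but other markers of these lists were not. The block fit without S1's 5-day air library, which called 18.8% of all genes, called LYZ of the leukocyte list higher (0.45, adjusted p = 0.0045). It also called AGR2 of the secretory list (0.32, 0.012) and PIFO of the multiciliated list (0.64, 0.017) higher. Called lower there were KRT5, TP63, NGFR, ITGA6, ITGB4, PDPN and COL17A1 of the basal list and MKI67 and TOP2A of the cycling list.

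**Figure D5:**
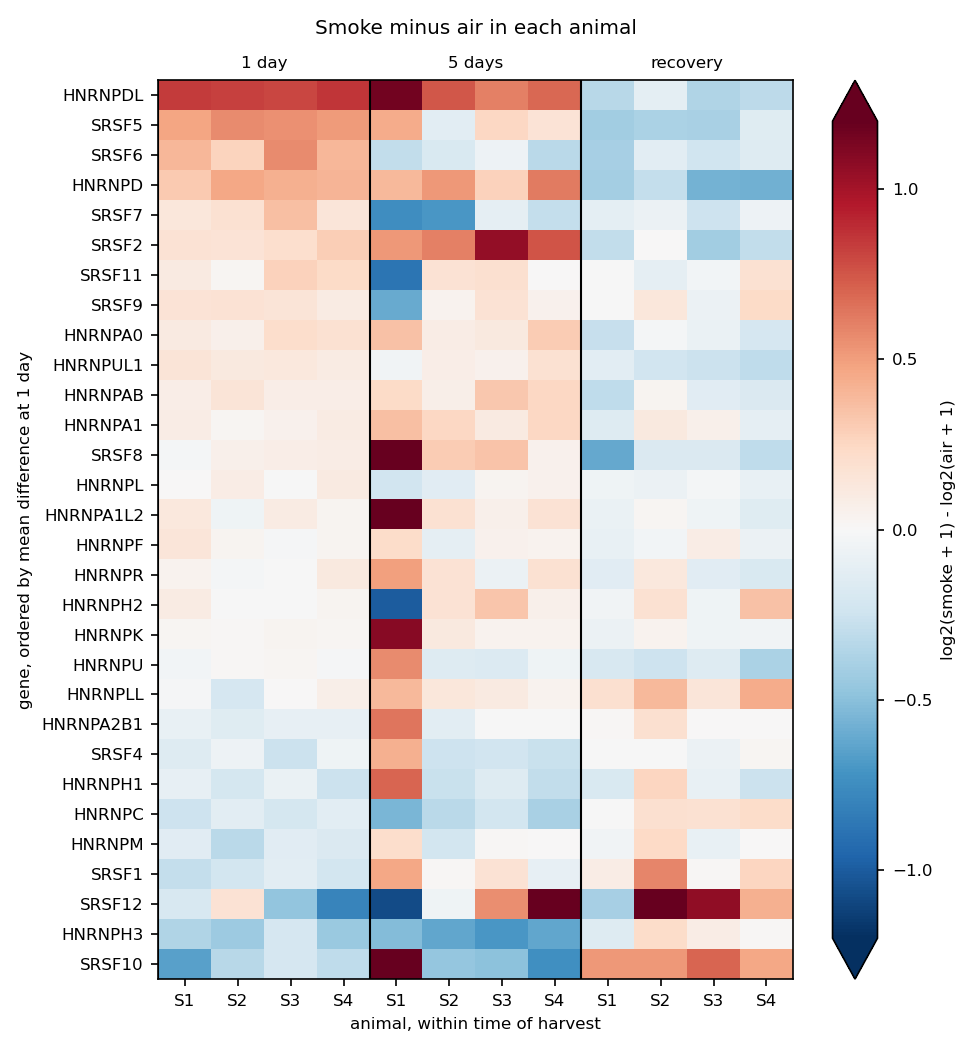
Log2 difference between smoke and air within each animal (columns) for the 30 HNRNP and SRSF genes (rows), at 1 day, 5 days and recovery. Red is higher in smoke, and values past the ends of the colour bar take its end colour; HNRNPDL is red in all 8 columns of the exposure times and blue in all 4 of recovery.

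An interaction term tested whether the effect of smoke differed between times. From 5 days to recovery the smoke effect changed for 5 of 30 members without a block (2 higher, 3 lower), against 0.348% of all genes tested. The effect went down for HNRNPDL (log2 −1.08 ± 0.21, adjusted p = 0.021), HNRNPD (−0.91 ± 0.17, 0.021) and SRSF2 (−0.98 ± 0.20, 0.036). It went up for HNRNPH3 (0.66 ± 0.12, 0.021) and HNRNPC (0.52 ± 0.11, 0.035). In smoke HNRNPH3 averaged 1282 at 5 days and 1185 after recovery, HNRNPC 4612 and 4605, and SRSF2 944 and 937. In air these 3 averaged 1969 and 1148, 5971 and 4154, and 569 and 1102. HNRNPDL and HNRNPD moved from 1254 to 1074 and 1651 to 1269 in smoke, and from 721 to 1318 and 1215 to 1745 in air. In the block fit SRSF5 and HNRNPAB were added on the lower side (7 of 30, against 3.56%). Without S1's 5-day air library the block fit called 11 (3 higher, 8 lower), against 11.3%. On the 16 libraries of both times alone 0 members were called without a block, against 0.00711%. With it 3 were called (HNRNPDL, HNRNPD and HNRNPH3), against 0.519%.

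From 1 day to recovery 0 of 30 members were called without a block, against 0.00711% of all genes, and 12 had an unadjusted p under 0.05, beside 5.28% of all genes. With the block 4 were called, all with a lower smoke effect after recovery, against 1.22%: HNRNPDL (−1.11, adjusted p = 0.0011), HNRNPD (−0.86, 0.0018), SRSF5 (−0.86, 0.0032) and SRSF6 (−0.64, 0.031). Without S1's 5-day air library the block fit called 11 (5 higher, 6 lower), against 9.2%, and on the 16 libraries of both times alone 4 were called without the block, against 0.363%, and 10 with it, against 8.26%. Between 1 day and 5 days 0 members were called in either fit, against 0.0142% of all genes without and 0.0427% with the block. At an unadjusted p under 0.05 there were 4 members without the block, beside 3.65% of all genes, and 7 with it, beside 9.32%. The smallest p was that of SRSF6 without the block (log2 −0.62 ± 0.17, adjusted p = 0.95) and of SRSF7 with it (−0.67 ± 0.14, adjusted p = 0.13). The 1-day values of SRSF7 were 782, 664, 783 and 678 in smoke, against 710.4, 585, 607 and 614 in air. SRSF7 was called in the block fit without S1's 5-day air library (−0.57, adjusted p = 0.036, against 0.306% of all genes).

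The air cultures themselves differed between times of harvest. These comparisons use the same 5-day air libraries as the 5-day comparison of smoke with air, so each set of values is given on its own. On the libraries of each contrast alone 0 members were called in either fit, which ends all the air calls below. Hardly any of all genes were called there either. For 5 days against 1 day it was 0% in both fits. For recovery against 5 days it was 0.114% without and 0.0284% with the block. Basal cell markers summed to 56500 to 72650 at 1 day, 34930 to 55890 at 5 days and 58260 to 69480 after recovery in air, so the 5-day level overlapped neither other time. Cycling cell markers summed to 2542 to 4984 at 1 day, 1274 to 2528 at 5 days and 1513 to 1597 after recovery. Their part in the air results was not tested. In air at 5 days, 4 of 30 members differed from 1 day without a block (2 higher, 2 lower), against 3.98% of all genes tested. HNRNPH3 averaged 1969 ± 173 normalized counts at 5 days against 1486 ± 114 at 1 day (SD, n = 4, log2 0.41, adjusted p = 0.016). HNRNPC averaged 5971 ± 376 against 4645 ± 166 (0.36, 0.013). SRSF2 averaged 569 ± 82.2 against 975 ± 99.6 (−0.78, 0.0069) and SRSF5 averaged 1171 ± 141 against 1714 ± 99.4 (−0.56, 0.021). With the block 11 members were called (5 higher, 6 lower), against 19.4% of all genes, and without S1's 5-day library 13 (7 higher, 6 lower), against 18.6%.

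In air after recovery, 11 of 30 members differed from 5 days without a block (6 higher, 5 lower), against 11.3% of all genes, and 13 with the block, against 28.4%. HNRNPDL (log2 0.86, adjusted p = 0.00099), HNRNPD (0.53, 0.010), SRSF2 (0.95, 0.00033), SRSF8 (1.14, 0.0073), HNRNPAB (0.32, 0.013) and HNRNPA0 (0.28, 0.037) rose. HNRNPH3 (−0.78, 2.5e-05), HNRNPC (−0.52, 0.00022), SRSF5 (−0.62, 0.0047), HNRNPL (−0.35, 0.016) and SRSF4 (−0.44, 0.019) fell. HNRNPL, which binds CA repeats, averaged 3176 ± 149 after recovery against 4057 ± 479 at 5 days in air. Without S1's 5-day air library, the block fit called 18 (7 higher, 11 lower), against 27.1%, and SRSF8 was at 0.72.

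The 6 groups laid side by side show how each gene ran in smoke and in air. HNRNPH3 averaged 1157 ± 59.3, 1282 ± 76.7 and 1185 ± 103 normalized counts in smoke at 1 day, 5 days and recovery (SD, n = 4). In air it averaged 1486 ± 114, 1969 ± 173 and 1148 ± 65.0. SRSF5 averaged 2470.0 ± 112, 1334 ± 209.7 and 605 ± 91.5 in smoke, and 1714 ± 99.4, 1171 ± 141 and 761 ± 101 in air. SRSF5 thus ran downward through all 3 times in both groups, while HNRNPH3 stayed within 1113 to 1387 over the 12 smoke libraries and peaked at 5 days in air. HNRNPDL averaged 1654 ± 254, 1254 ± 155 and 1074 ± 112 in smoke, and 929.9 ± 137, 721 ± 95.5 and 1318 ± 225 in air. Its lowest air values came at 5 days and its highest after recovery.

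The 1-day and recovery values of the genes that stood out at 5 days complete the series. HNRNPC had 4003, 4393, 3993 and 4036 normalized counts in smoke at 1 day, against 4757, 4782, 4619.6 and 4420.3 in air. All smoke libraries were lower, if only just in S2 smoke against S4 air (log2 −0.18 ± 0.07, adjusted p = 0.90 with the block). After recovery it had 4169.5, 4797, 4815 and 4639 in smoke, against 4184, 4211, 4239 and 3982 in air, with smoke higher in 3 of 4 animals (0.15 ± 0.07, adjusted p = 0.25 with the block). SRSF2 had 1209.9, 942, 1160.4 and 1194 in smoke at 1 day, against 1074, 838, 1010.0 and 976 in air. Smoke was higher in all 4 animals, with overlap between animals (log2 0.21 ± 0.14).

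After recovery SRSF6 had 897, 1242, 1239.7 and 1148 normalized counts in smoke, against 1181, 1354, 1461 and 1278 in air, lower in all 4 animals with overlap (log2 −0.23 ± 0.12). SRSF7 had 653, 631, 675 and 598 in smoke, against 707, 663, 803 and 625 in air, also lower in each animal with overlap (−0.13 ± 0.13). HNRNPAB had 2598, 3273, 2955 and 2662 in smoke, against 3211, 3192, 3254 and 3005 in air, where S2 alone was higher in smoke (−0.15 ± 0.08). None of the 3 was called in either fit at that time.

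The remaining named members gave no call of smoke against air. HNRNPL lay at 4114, 4065, 4167 and 4224 normalized counts in smoke at 1 day, against 4088, 3813, 4175 and 3912 in air, and its log2 fold change was 0.05, −0.07 and −0.06 at the 3 times. HNRNPR (ENSMMUG00000010970), a relative of SYNCRIP, averaged 1450.0 ± 64.1 in smoke at 5 days against 1274 ± 146 in air (log2 0.19 ± 0.11). SRSF9 averaged 792 ± 73.7 in smoke at 5 days against 846 ± 161 in air, where S1 was the highest library at 1086 (log2 −0.08 ± 0.11). The groups of all 3 genes overlapped at 5 days.

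Among the 16 other members none was called for smoke against air without or with the block, and the lowest adjusted p was 0.056, for HNRNPUL1 after recovery with the block. Their log2 fold changes without a block ran from −0.37 (SRSF10) to 0.16 (SRSF11) at 1 day, from −0.13 (SRSF11) to 0.47 (HNRNPA1L2) at 5 days, and from −0.24 (HNRNPU) to 0.68 (SRSF12) after recovery. SRSF1, the founding SR protein, averaged 1851 ± 175 in smoke after recovery against 1569 ± 154 in air (log2 0.24 ± 0.12). HNRNPM averaged 1771 ± 268 in smoke at 1 day against 2011 ± 202 in air (−0.19 ± 0.12). HNRNPA1, which blocks exons by binding silencer sequences, averaged 6214 ± 894 in smoke at 5 days against 5236 ± 514 in air (0.24 ± 0.16). HNRNPA1L2 is a near copy of HNRNPA1, so reads may be shared between them and its values are uncertain. It was lowest in S1 in every group, at 387 in 5-day air against 1763 to 1955 in the other 3 animals, while HNRNPA1 was highest in S1 in every group.

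Other splicing genes were counted from 4 lists. Among 18 SR-related regulators and SR protein kinases, 0 were called at 1 day and 5 days and 1 after recovery without a block: SRRM1, a splicing coactivator that binds SR proteins, fell (log2 −0.42 ± 0.07, adjusted p = 0.012). With the block CLK1, a kinase that phosphorylates SR proteins, fell at 1 day (−0.48 ± 0.09, 0.031). At 5 days BCLAF1 (0.41, 0.024) and SRRM1 (0.26, 0.047) rose, and after recovery SRRM1, SRRM2 (−0.68, 0.024) and THRAP3 (−0.39, 0.017) fell. Among 31 other sequence-specific regulators 0 were called without a block at any of the 3 times. With the block EWSR1 rose (0.53 ± 0.10, adjusted p = 0.011) and KHDRBS3, a relative of SAM68, fell (−0.95 ± 0.21, 0.028) at 5 days. Of all genes, 0.0284, 0.0711 and 0.242% were called without a block at 1 day, 5 days and recovery, and 0.0782, 1.69 and 3.41% with it. Without S1's 5-day air library the block fit added genes to the calls of both lists. At 1 day MBNL2 fell, and at 5 days TRA2A, QKI, TIA1, RBM5 and RBM39 fell. After recovery TRA2A, MBNL2 and TIA1 rose, and SON, BCLAF1 and CELF2 fell. Of all genes, that fit called 0.96% at 1 day, 6.26% at 5 days and 18.8% after recovery.

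Core snRNP and spliceosome components gave 0 calls of 37 at each time in both fits, and factors of nonsense-mediated decay 0 of 14. Their members with the smallest p without a block were SNRPE after recovery (log2 0.49 ± 0.14, adjusted p = 0.18) and UPF1 at 1 day (−0.47 ± 0.13, unadjusted p = 0.00166). Without S1's 5-day air library the block fit called UPF1, the helicase at the centre of that decay, lower at 1 day (adjusted p = 0.0020), and 5 of 14 decay factors lower after recovery, UPF1 again among them. In that fit the core components gave 4 higher and 6 lower of 37 after recovery, against the 18.8% of all genes given above.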

How the data were processed

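The authors deposited 1 table with 24 columns, 1 for each library, of gene values that are a normalized signal (normalized counts), although its name speaks of raw counts. The deposited values are not whole, the median library ratio was 1.01 in every library, and 81.9 to 84.7% of the low values in a library fell within 0.1 of a whole multiple of its step. Whole reads were therefore not recovered, count tests were not used, and no counting interval is given. Per the labels, RNA was poly-A selected. Per the submitters' processing notes, FastQC, Trim Galore, Bowtie2 and RSEM were used. No versions stand there. Genome build and annotation: not given in the sources used here. No positions are printed.

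Values were analysed as log2(value + 1) for genes with at least 10 in at least 4 libraries. Group means of all 24 libraries were fitted with limma 3.58.1 in R 4.3.3 (variances following the mean), 8 contrasts were tested two-sided, and p was adjusted by Benjamini-Hochberg over 14062 genes, called under 0.05. The steps were tested on simulated data. Libraries of the same animal are pairs by label: deviations from group means correlated at 0.303 to 0.804 (60 pairs) within and −0.443 to 0.0149 (180 pairs) between animals. Deviations cancel within each group, so the values between animals are not separate evidence of pairing. Animal as an additive block was the alternative fit.

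The rule named 14 of 17 members called in either fit in any contrast, those with the smallest adjusted p for smoke against air, and for the others the 3 with the smallest p and the 3 with the largest size at each time. HNRNPA2B1, HNRNPH2, SRSF4 and SRSF11 are outside it and were named after their values were seen. Members, gene lists and comparisons were chosen with earlier results of these data known.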

Additional observations from a re-analysis of the deposited data

Results flagged for a closer look

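For 5 members the smoke effect differed between recovery and 5 days (limma interaction, no block), against 0.348% of all genes tested. The changes were −1.08 for HNRNPDL, −0.91 for HNRNPD, −0.98 for SRSF2, 0.66 for HNRNPH3 and 0.52 for HNRNPC on the log2 scale, with adjusted p of 0.021 to 0.036. The means of HNRNPH3, HNRNPC and SRSF2 moved less in smoke than in air. On the libraries of both times alone 0 members were called without a block, against 0.00711% of all genes.

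In 15 of 144 sets of 4 libraries (the 24 members named by rule, in 6 groups) 1 library lay far from the other 3. The members were named from the same values and share libraries, so this count cannot be set against chance. Among these 24 members S1's 5-day air library was apart 5 times. It had 387 normalized counts of HNRNPA1L2 (1763 to 1955 in the other 3), 4032 of HNRNPK (7366 to 7953), 70.6 of SRSF8 (218 to 245), 1019 of SRSF7 (697 to 730.3) and 1086 of SRSF9 (739 to 787). Members outside the 24 were not tested, so this count leaves some out. The same library had 4918 of HNRNPH2 (1987 to 2022), 4194 of HNRNPA2B1 (6592 to 6744), 689 of SRSF4 (1053 to 1094) and 1565 of SRSF11 (774 to 870).

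Other libraries of S1 were apart for HNRNPA1 in 5-day smoke (7548 against 5650.4 to 5837), for HNRNPA1L2 in 5-day smoke (1066 against 1984 to 2065) and 1-day air (972 against 1531 to 1643), and for HNRNPAB in 1-day air (2645 against 2484 to 2511). S2 was apart for HNRNPM in 5-day smoke (1763 against 2289.6 to 2372), HNRNPC in 1-day smoke (4393 against 3993 to 4036), HNRNPAB in 5-day air (2782 against 2446 to 2478) and HNRNPL in recovery air (2953 against 3242 to 3266). In 1-day air S2 had 1566 of SRSF5 (1751 to 1773) and 276 of SRSF8 (306 to 311).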

How the results depend on the processing

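None of the 14 members named with values in every library changed sign under any alternative in a comparison where either fit called it. Other called members were not followed in this way. With animal as a block, the count of members called was 2 at 1 day, 6 at 5 days and 1 after recovery (0.0782, 1.69 and 3.41% of all genes). It was 7 for the change from 5 days to recovery and 4 for 1 day to recovery (3.56 and 1.22%). In air it was 11 at 5 days and 13 after recovery (19.4 and 28.4%). It stayed 0 for 1 day to 5 days. In the libraries of a contrast alone and without a block, 0 were called at 1 day, 5 days, from 5 days to recovery and in both air contrasts, and 4 from 1 day to recovery. Of all genes, 0 to 0.114% were called there where no member was, and 0.363% from 1 day to recovery. With the block as well, 15 members were called at 1 day, 0 at 5 days and 10 after recovery (9.11, 0 and 18.8% of all genes). From 5 days to recovery 3 were called, and from 1 day to recovery 10 (0.519 and 8.26%). Both air contrasts gave 0 (0% at 5 days and 0.0284% after recovery). Library totals as scaling gave 0 at 1 day and 3 from 5 days to recovery, shifting the median of all genes by −0.15 in air at 5 days, 0.16 from 1 day to 5 days and 0.10 from 1 day to recovery. No filter gave 3 from 5 days to recovery; no trend gave 0 at 1 day and 3 from 5 days to recovery. At an adjusted p under 0.1, 4 were called at 5 days, 1 from 1 day to recovery and 8 in air at 5 days.

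Leaving out animals or libraries gave 0 to 1 called at 1 day, 0 to 5 at 5 days, 0 to 2 after recovery, 0 from 1 day to 5 days, 0 to 6 from 5 days to recovery, 0 to 4 from 1 day to recovery, 0 to 7 in air at 5 days and 5 to 13 in air after recovery. With the block the ranges were 0 to 6, 1 to 8, 0 to 10, 0 to 1, 0 to 11, 0 to 11, 4 to 13 and 9 to 18. The share of all genes called moved too. Leaving out S1's 5-day air library took it from 1.69 to 6.26% at 5 days and from 3.41 to 18.8% after recovery, with the block. That share is not given for the other omissions or for the changed scaling, filter, trend and threshold, so those counts are not results about the members alone. Without a block HNRNPH3 at 5 days stayed called in 24 of 24 library omissions and 1 of 4 animal omissions (adjusted p up to 0.36), and HNRNPDL in 9 of 24 at 1 day, 15 of 24 at 5 days and 0 of 4 animal omissions at either. With the block HNRNPDL stayed called in 24 of 24 at both times. It was lost at 1 day without S4 (adjusted p = 0.096) and kept in 4 of 4 animal omissions at 5 days. At 5 days SRSF2 was lost with the block without S3 smoke (adjusted p = 0.064), SRSF7 stayed called in 20 of 24, and SRSF5 at 1 day in 17 of 24. Without a block, the 5-day to recovery change lost HNRNPD and HNRNPDL in 5 of 24 library omissions each. Accepting the reference table's symbols gave 34 members. Precision is limited by 4 animals a group.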
